A study of Mus musculus with 24 samples.

Results

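Plasma vesicle RNA was examined for 93 genes of detoxification enzymes, chosen by symbol from the 21960 genes of the expected count table. The choice took every Ugt1a, Ugt2a and Ugt2b, Sult, Ces, Fmo, Adh and Aldh gene, whatever its values. The families held 9 Ugt1a, 3 Ugt2a and 7 Ugt2b genes, 21 Sult, 19 Ces, 7 Fmo, 6 Adh and 21 Aldh genes.

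These enzymes make lipid-soluble compounds water-soluble so that bile or urine can carry them away. Flavin-containing monooxygenases (Fmo), alcohol dehydrogenases (Adh) and aldehyde dehydrogenases (Aldh) oxidise, and carboxylesterases (Ces) split esters and amides. UDP-glucuronosyltransferases (Ugt) and sulfotransferases (Sult) then attach a sugar acid or a sulfonate group. Hepatocytes are rich in most of them, and some Aldh genes are active in nearly every tissue.

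All 24 mice were male C57BL/6J, an inbred strain, and no allele or further agent is named for any of them. The 4 groups of 6 animals were mice with a ligated bile duct at day 8, sham-operated mice at day 8, ligated mice at day 15 and sham-operated mice at day 15. Ligation stops bile flow and is a model of cholestasis, and each animal gave 1 library. The tissue field of the labels says liver, whereas the site field and the protocols describe vesicles precipitated from plasma with ExoQuick, a polymer reagent that can also bring down material other than vesicles. The treatment protocol field names ligation for sham animals as well, so the groups follow the titles.

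Library totals were 167939 to 937963 counts in ligated and 101733 to 824640 in sham mice at day 8, and 315404 to 465744 in ligated and 157133 to 351201 in sham mice at day 15. Levels below are CPM, a gene's counts scaled by its library's total, and a single count was worth 9.83 CPM in the shallowest library. Of 20 hepatocyte markers, 20 had a count in ligated mice at both days, whereas in sham mice 18 had one at day 8, with Apoh and Fgb at 0, and 17 at day 15, with Serpina3k, Fgg and Mat1a at 0. Their summed level ran from 526 to 4828 CPM in ligated and from 50.4 to 154 CPM in sham mice at day 8. At day 15 it ran from 3581 to 26594 CPM in ligated and from 89.7 to 204 CPM in sham mice. Red cell markers, with 9 of 10 in the table and 9 counted in every group, were far above this at 76650 to 160421 CPM in ligated and 56004 to 80918 CPM in sham mice at day 8, although the tissue field says liver. Ligated library 5 of day 15 had the highest hepatocyte marker level of all 24, ligated library 3 the highest of day 8, and day 8 libraries 4 to 6 of both groups were deeper than 1 to 3. In such bulk RNA, fewer cells of a type and less RNA per cell cannot be told apart.

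The 9 Ugt1a genes lie in 1 cluster on the plus strand of chromosome 1 (GRCm38) and share the same later exons. Most have their own first coding exon, but the Ugt1a6a and Ugt1a7c transcripts used here start coding in the same one. The first 60 coding bases of the genes that carried the counts, and the first 75 bases of the exon they share, show which reads can be assigned to a gene (capitals mark the start codon).
Ugt1a1, chr1:88212002-88212061: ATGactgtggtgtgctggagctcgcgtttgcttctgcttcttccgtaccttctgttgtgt
Ugt1a6b, chr1:88106942-88107001: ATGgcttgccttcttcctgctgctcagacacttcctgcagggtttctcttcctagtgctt
Ugt1a6a and Ugt1a7c, chr1:88138474-88138533: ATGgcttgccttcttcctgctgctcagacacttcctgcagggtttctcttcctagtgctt
shared second coding exon, chr1:88215044-88215118: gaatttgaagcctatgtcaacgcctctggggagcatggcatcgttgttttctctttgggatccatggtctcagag
The first stretch was identical in Ugt1a6a, Ugt1a6b and Ugt1a7c (60 of 60 bases), and in the annotated transcripts used here Ugt1a6a and Ugt1a7c take it from the same position. Ugt1a1 matched these at 19 of 60 bases. The stretch of the shared exon was the same in 9 of 9 genes. Of all 75-base windows of the longest transcript, 100% of Ugt1a6a, 75.4% of Ugt1a6b, 69.1% of Ugt1a7c and 57.7% of Ugt1a1 also occurred in another gene. The division of reads among them was not given in the sources used here. Therefore Ugt1a6a, Ugt1a6b and Ugt1a7c are uncertain singly and the family sum is the safer value.

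Of the 93 genes, 70 had a count in at least 1 library and 23 had none in all 24. In single groups, 54 had a count in ligated and 39 in sham mice at day 8, and 68 in ligated and 36 in sham mice at day 15. Summed over the 93 genes, the counts were 2977 in ligated and 2058 in sham mice at day 8, and 3070 in ligated and 1107 in sham mice at day 15. As a pooled CPM ratio this was 1.29 at day 8 (exact 95% counting interval 1.22 to 1.37, with 0.997 in libraries 1 to 3 and 1.37 in libraries 4 to 6) and 1.87 at day 15 (1.75 to 2.01). Ratios and bounds below, of families and of single untested genes, are on library totals. Such intervals, and the floor of 3 counts over a group used below, pool the reads of a group's 6 animals and cover counting error only. They leave out the spread between animals, so an interval that excludes 1 is no test of ligation. Reads also carry no molecular identifiers. Folds given as at least a value set the ligated counts against this floor and leave out counting error in the ligated counts. They are not 95% bounds, and the exact intervals start lower, for Ces1c at day 15 at 31.1. The sum is dominated by Aldh2, mitochondrial acetaldehyde dehydrogenase, which gave 46.4% of the counts in ligated and 43.9% in sham mice at day 8, and 14.1% in ligated and 23.5% in sham mice at day 15. Family sums are shown by library in the plot of summed levels.

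**Figure D1:**
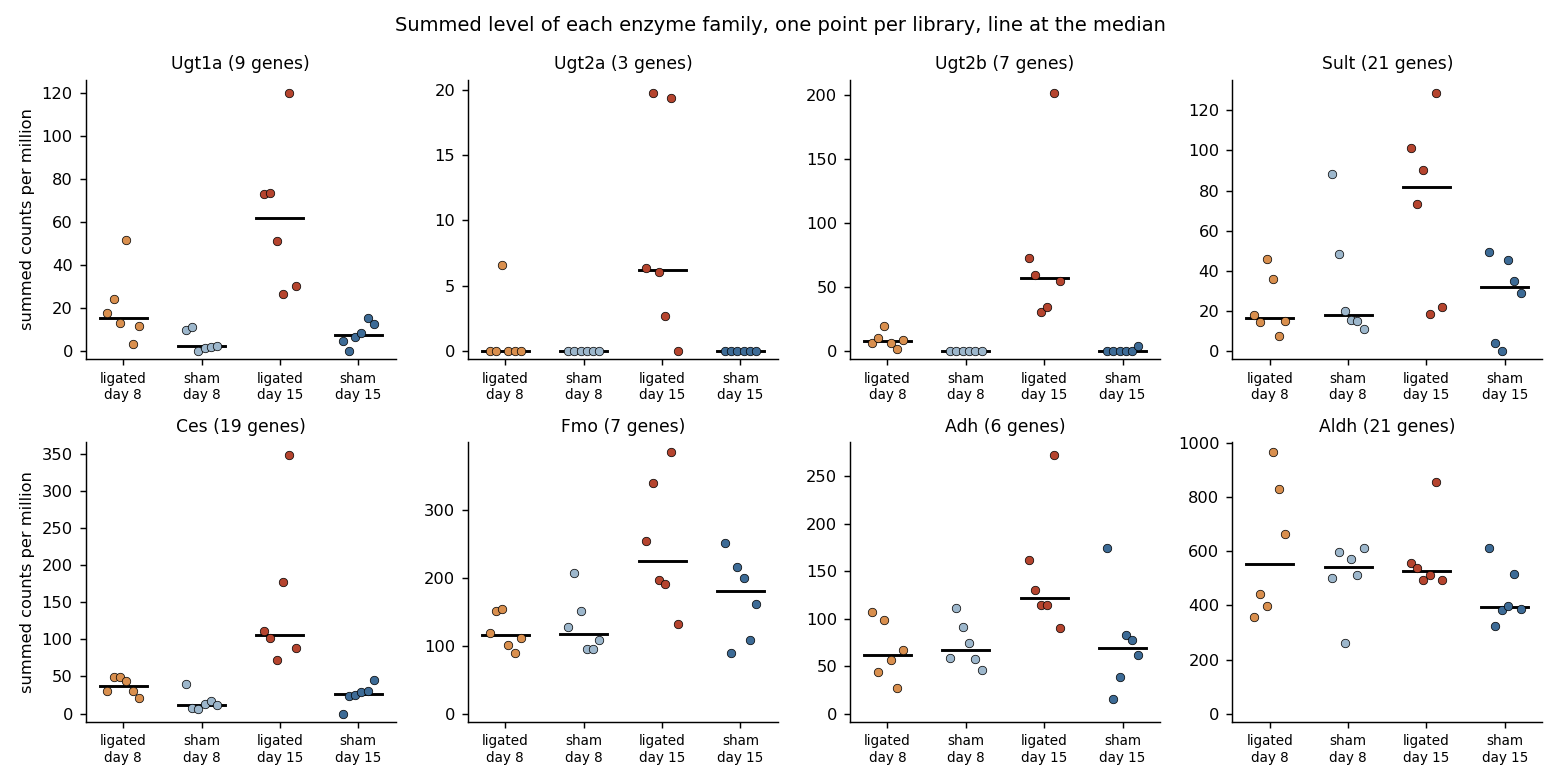
Summed level of each enzyme family in CPM (linear axes from 0), with 1 point per library, a line at the group median and the groups ligated day 8, sham day 8, ligated day 15 and sham day 15. Ugt1a, Ugt2b and Ces of all 6 ligated libraries at day 15 lie above every sham library of that day, whereas Fmo, Adh and Aldh of the groups overlap.

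Genes seen after ligation and missing in sham mice made up much of the pattern. At day 8, 6 members had over 3 counts in ligated and 0 in sham mice (Ugt2b34, Ugt2b36, Ugt1a7c, Ugt1a6b, Ces1g and Ces3a), which is 8.57% of the 70 members with a count, beside 1.36% of all 18710 genes with a count. At day 15 there were 26 such members, 37.1% of the 70, beside 7.61% of all genes. The reverse pattern held for 1 member at day 8 and for 0 at day 15, beside 0.412% and 0.118% of all genes. Of the 26, 18 had their highest count in ligated library 5. Without that library 19 members met the condition, beside 5.68% of all genes. All 6 ligated libraries lay above all 6 sham libraries for 3 members at day 8 (Ugt2b34, Ugt1a7c and Aldh1l1), beside 0.347% of all genes. At day 15 this held for 7 (Fmo5, Ugt2b34, Ugt2b5, Ugt2b36, Ces1c, Ces1g and Ces2a), beside 1.33% of all genes.

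Among the Ugt1a genes, which include the bilirubin-conjugating enzyme Ugt1a1, the summed level at day 8 was 3.02 to 51.5 CPM (median 15.5) in ligated and 0 to 11.1 CPM (median 2.15) in sham mice. At day 15 it was 26.5 to 120.2 CPM (median 62.1) in ligated and 0 to 15.4 CPM (median 7.45) in sham mice. The groups overlapped at day 8, with 5 of 6 ligated libraries above the highest sham library, and did not overlap at day 15. The group sums were 65 counts in ligated and 8 in sham mice at day 8 (ratio 7.26, counting interval 3.47 to 17.5), and 143 in ligated and 12 in sham mice at day 15 (ratio 8.04, 4.46 to 15.9). Without ligated library 4 the day 8 ratio was 3.74, and as a ratio of means of library levels it was 4.54.

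Ugt1a1 was seen mainly at day 15. It had 1 count in ligated and 1 in sham mice at day 8, and 73 in ligated and 0 in sham mice at day 15, at least 16.4-fold higher against the floor. Its level at day 15 was 0 to 62.3 CPM (median 33.0) in ligated mice, with counts in 5 of 6 libraries, and 0 in every sham library. Ugt1a6a had 31 counts in ligated mice at day 8, 29 of them in library 4, and 3 in sham mice. Its sums at day 15 were 24 in ligated and 8 in sham mice. Ugt1a7c had 3.02 to 24.3 CPM (median 8.80) in ligated mice at day 8 and 0 in every sham library, with sums of 25 and 0 counts, at least 7.44-fold higher. It was seen in 6 of 6 ligated libraries then, and in 3 of 6 at day 15, with 13 counts in ligated and 1 in sham mice. Ugt1a6b had 8 counts in ligated and 0 in sham mice at day 8, and 19 and 0 at day 15. Markers of intestinal epithelium, where Ugt1a genes are active too, moved with ligation at day 8 as hepatocyte markers did, at 11.6 to 71.5 CPM in ligated mice (8 of 10 counted, Cdx1 and Cdx2 at 0) and 0 to 3.70 CPM in sham mice (4 of 10 counted, with Fabp2, Cdx2, Krt20, Muc2, Reg3g and Sis at 0). They did so at day 15 too, at 34.4 to 69.3 CPM in ligated mice (9 of 10 counted, Cdx1 at 0) and 0 to 8.26 CPM in sham mice (2 of 10 counted, with Fabp2, Cdx1, Cdx2, Krt20, Muc2, Reg3g, Sis and Apoa4 at 0). Their part in the Ugt1a values was not tested. Ugt1a5 and Ugt1a9 stayed under 10 counts in each group, and Ugt1a2, Ugt1a8 and Ugt1a10 had none.

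The Ugt2b genes, whose enzymes conjugate steroids and many drugs, were nearly absent from sham mice. Their summed level was 1.51 to 19.7 CPM (median 7.49) in ligated and 0 in all sham libraries at day 8, and 30.2 to 202 CPM (median 57.0) in ligated and 0 to 4.13 CPM (median 0) in sham mice at day 15. The groups did not overlap on either day. The sums were 23 counts in ligated and 0 in sham mice at day 8, at least 6.85-fold higher, and 181 in ligated and 1 in sham mice at day 15, a ratio of 122 with a counting interval of 21.6 to 4848. The day 15 value was 74.3 without ligated library 5, and 34.1, against the floor, without sham library 6, which held the single sham count.

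Ugt2b34 (chr5:86889767-86906937, minus strand, GRCm38) was the Ugt2b gene seen in every ligated mouse at both days. It had 1.51 to 13.2 CPM (median 4.57) in ligated and 0 in all sham libraries at day 8, with sums of 14 and 0 counts. At day 15 it had 9.05 to 75.1 CPM (median 22.9) in ligated mice and 0 to 4.13 CPM (median 0) in sham mice, with sums of 71 and 1 counts, a ratio of 47.9 (8.32 to 1918). Library 5 held 49.3% of the ligated counts, and without it the ratio was 30.8 (5.18 to 1248). The other named members were seen mainly at day 15, where Ugt2b35 had 45 counts in ligated and 0 in sham mice, Ugt2b5 30 and 0, and Ugt2b36 24 and 0. Ugt2b5 and Ugt2b36 were counted in 6 of 6 ligated libraries of day 15 and Ugt2b35 in 5 of 6, with 62.2% of its counts in library 5. Of the windows of Ugt2b5, 30.4% also occur in another gene, mainly Ugt2b38, which had no count. Ugt2a3 had 20 counts in ligated and 0 in sham mice at day 15, at least 4.50-fold higher, and 2 and 0 at day 8.

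Sulfotransferases were mostly undetected. Of the 21 genes, 13 had no count in any library, among them Sult2a1 to Sult2a7 of the subfamily that sulfonates bile acids and steroids, and Sult3a1 and Sult3a2. A count of 0 over a group allows up to 3 counts, so low levels were not detectable at this depth. The summed level was 7.56 to 46.0 CPM in ligated and 10.9 to 88.5 CPM in sham mice at day 8, and 18.5 to 129 CPM in ligated and 0 to 49.3 CPM in sham mice at day 15, overlapping on both days. Sult1a1, which acts on phenols, gave most of it. Sult1a1 had 13.7 to 107 CPM (median 65.9) in ligated and 0 to 44.8 CPM (median 27.7) in sham mice at day 15, a log2 fold change of 1.61 (SE 0.55), and edgeR's adjusted p of 0.0912 did not pass the threshold of 0.05. Sult1d1 had 12 counts in ligated and 0 in sham mice at day 15, at least 2.70-fold higher (1.71 without library 5), and 3 and 1 at day 8. The exact intervals at day 15 start at 1.87, and at 1.01 without library 5.

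Carboxylesterases were higher after ligation, most clearly at day 15. The summed level was 21.3 to 49.3 CPM (median 37.0) in ligated and 5.72 to 39.3 CPM (median 11.7) in sham mice at day 8, where 3 of 6 ligated libraries exceeded the highest sham library. At day 15 it was 72.4 to 348 CPM (median 106) in ligated and 0 to 45.4 CPM (median 27.0) in sham mice, without overlap. The sums were 104 counts in ligated and 34 in sham mice at day 8 (ratio 2.73, 1.84 to 4.15), and 356 in ligated and 39 in sham mice at day 15 (ratio 6.16, 4.42 to 8.80). By subfamily, the day 15 sums were 264 counts in ligated and 18 in sham mice for Ces1, 58 and 21 for Ces2, and 34 and 0 for Ces3.

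Ces1c (chr8:93099015-93131283, minus strand), the carboxylesterase that mice secrete into plasma, was the leading gene. It had 5.48 to 195 CPM (median 48.0) in ligated mice at day 15 and 0 in every sham library, with sums of 172 and 0 counts, at least 38.7-fold higher. Library 5 held 52.9% of those counts, and without it the fold against the floor was 23.1 (exact interval from 18.3). At day 8 the sums were 7 in ligated and 3 in sham mice. Ces1g, a relative tied to liver lipid handling, had 6.34 to 51.5 CPM (median 15.3) in ligated mice at day 15 and 0 in every sham library, with sums of 48 and 0 counts, at least 10.8-fold higher, and 6.84-fold without library 5. Ces3b (27 and 0 counts, 16 of the 27 in library 5), Ces2a (20 and 0) and Ces2e (12 and 0) also had counts in ligated mice alone at day 15. Of the 12 counts of Ces2e, 7 were in library 6, and without it the exact interval started at 0.740. At day 8 Ces2e had 9 counts in ligated and 6 in sham mice. Ces1d, a hydrolase of stored triglyceride, was seen in both groups at day 15, with 25 counts in ligated and 18 in sham mice. So was Ces2g, with 21 and 21. At day 8 Ces2g had 39 in ligated and 17 in sham mice, a ratio of 2.05 (1.13 to 3.86, and 1.69 with an interval of 0.871 to 3.35 without library 4), and Ces1d 25 and 6, with 14 of the 25 in library 4. Reads of Ces2a and Ces3b are in part shared with Gm7208 and Ces3a, over 14.8% and 15.4% of windows.

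RefSeq promoters (GRCm38.p6) were found for 75 of the 93 genes. The 250 bases before the gene start were searched, on both strands, for GTTAAT, a core of HNF1 binding sites. It occurred in 16 of the 83 promoters of these genes (19.3%), and in 6.43% of all 32851 promoters. By gene, 10 of 39 liver-enriched ones (25.6%) held it. Of the genes with it, Ces5a, Sult2a3, Sult2a4, Sult2a5, Sult2a6, Sult3a2 and Ugt1a10 had no count in any library. The others were Aldh1a7, Ces3b, Fmo6, Sult1a1, Sult1d1, Ugt1a1, Ugt1a6a, Ugt1a9 and Ugt2a3. CAAAGTCCA, an HNF4 site, and TTGCGCAA, the C/EBP palindrome, occurred in 0 of the 75, and in 0.384% and 0.164% of all promoters. The 250 bases before the start of 3 genes that were at 0 in sham mice at day 15 are shown, the first pair with the match in capitals and the last without one.
Ugt1a1, chr1:88211709-88211958, plus strand: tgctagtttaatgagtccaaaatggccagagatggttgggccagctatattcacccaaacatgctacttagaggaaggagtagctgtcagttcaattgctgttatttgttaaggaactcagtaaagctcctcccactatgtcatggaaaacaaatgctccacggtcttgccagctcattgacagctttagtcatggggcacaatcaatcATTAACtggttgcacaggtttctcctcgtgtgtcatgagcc
Ces3b, chr8:105083505-105083754, plus strand: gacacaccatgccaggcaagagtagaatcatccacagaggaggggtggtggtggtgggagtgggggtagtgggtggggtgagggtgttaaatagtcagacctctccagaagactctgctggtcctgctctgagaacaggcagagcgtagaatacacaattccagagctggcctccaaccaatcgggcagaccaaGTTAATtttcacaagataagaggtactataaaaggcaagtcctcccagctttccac
Ces1c, chr8:93131284-93131533, minus strand: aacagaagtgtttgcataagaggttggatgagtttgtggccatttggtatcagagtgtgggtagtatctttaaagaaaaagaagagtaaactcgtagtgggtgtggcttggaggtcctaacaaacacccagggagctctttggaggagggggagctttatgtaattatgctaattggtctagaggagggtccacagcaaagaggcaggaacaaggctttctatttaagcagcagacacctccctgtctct
In Ugt1a1 the match is on the minus strand (read as ATTAAC) and begins at position -41 from the gene start, and in Ces3b it is on the plus strand at -56. A match describes letters and not binding.

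**Figure D2:**
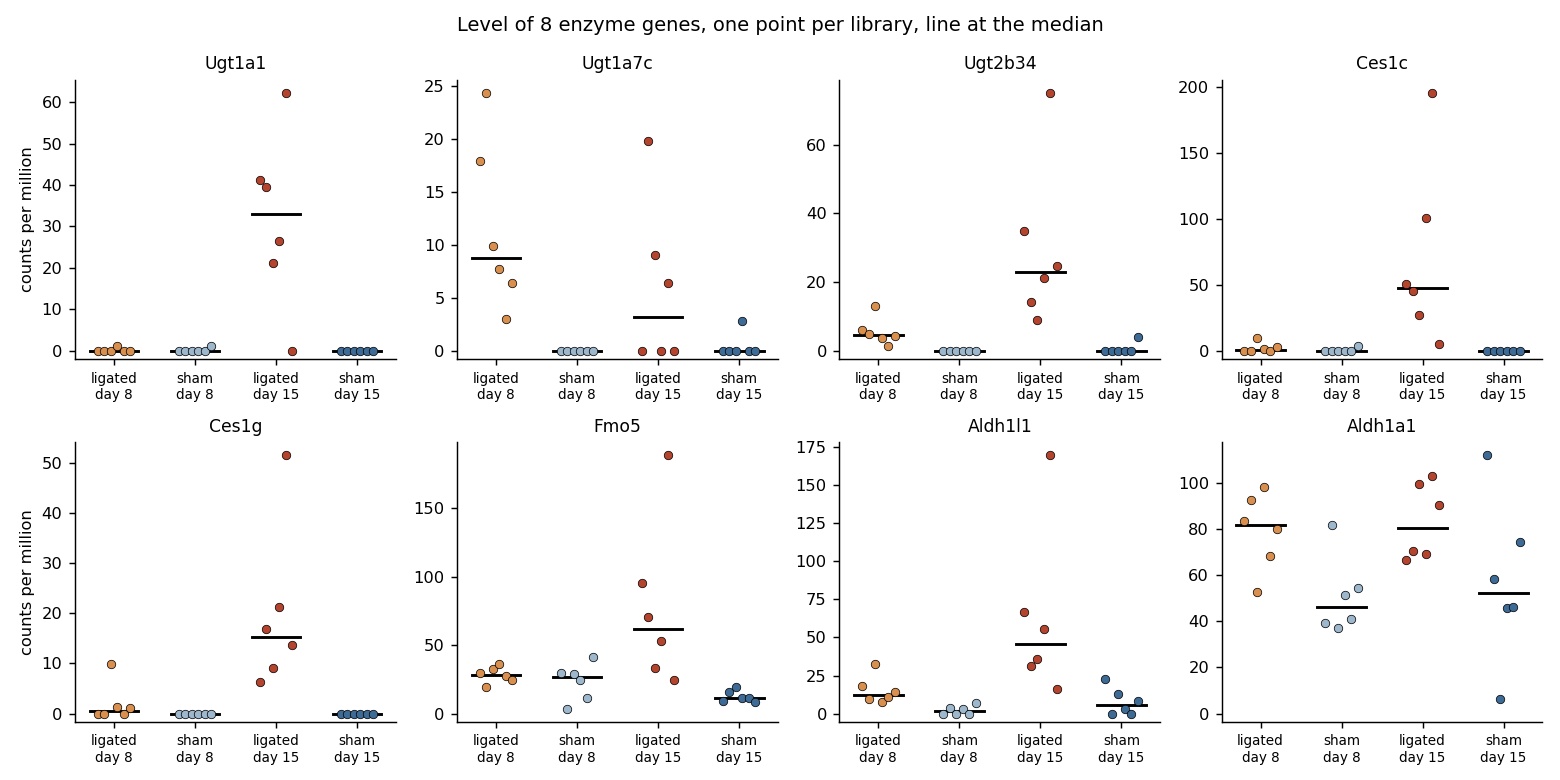
Level of 8 enzyme genes in CPM (linear axes from 0), with 1 point per library, a line at the group median and groups in the order ligated day 8, sham day 8, ligated day 15 and sham day 15. Ugt1a1, Ces1c and Ces1g are at 0 in every sham library of day 15, Ugt1a7c is at 0 in every sham library of day 8, and Aldh1a1 is at a like level in ligated mice of both days.

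Tests of members rest on the 12 that passed a filter on low counts, except where a fit without it is named. Sums and count ratios below also use members that failed it. The 12 were Fmo1, Fmo2, Fmo5, Adh1, Adh5, Sult1a1, Aldh1a1, Aldh1a2, Aldh1l1, Aldh2, Aldh3a2 and Aldh9a1. They were tested with edgeR's quasi-likelihood test among 4112 genes. A member could pass through a single group, so these 12 do not stand for the 93. Aldh1l1 passed through ligated libraries alone, reaching the needed 29.4 CPM in 6 libraries, 5 ligated at day 15 and 1 ligated at day 8. The p-values measure the spread between these animals. At day 15, 2 of the 12 rose (Fmo5 and Aldh1l1) and 0 fell, beside 3.48% higher and 1.07% lower of all genes tested. At day 8, 0 of 12 passed edgeR's threshold, beside 2.77% and 0.365%, with 2 higher at an unadjusted p under 0.05 and the same number, Aldh1l1 and Aldh1a1, called by DESeq2. The median log2 fold change of the 12 was 0.39 at day 15 and 0.44 at day 8, and of all genes tested -0.02 and 0.02.

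**Figure D3:**
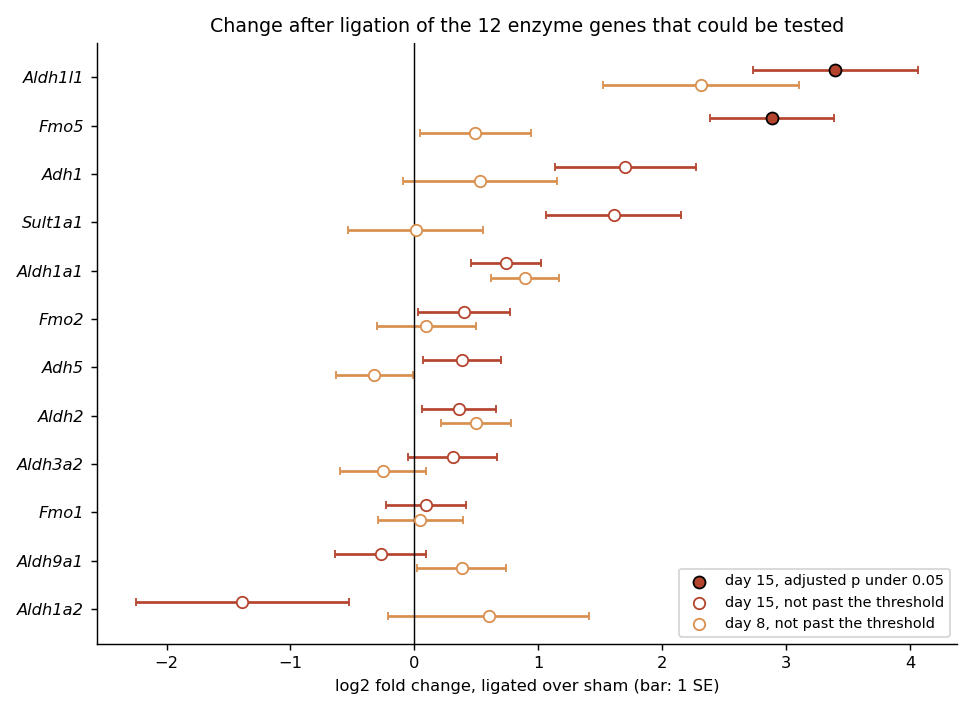
Log2 fold change of ligated over sham mice for the 12 tested enzyme genes at day 15 and day 8 (bars are 1 SE, filled points passed an adjusted p of 0.05 with edgeR). Aldh1l1 and Fmo5 at day 15 are the filled points, at 3.40 and 2.89.

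Fmo5 (chr3:97628804-97655282, plus strand), a monooxygenase that inserts oxygen next to carbonyl groups, had 24.7 to 189 CPM (median 61.8) in ligated and 8.26 to 19.1 CPM (median 11.5) in sham mice at day 15. Every ligated library lay above every sham library. Fmo5 rose by 2.89 on the log2 scale (SE 0.50), with an edgeR adjusted p of 0.000332 and 6 of 6 libraries higher. At day 8 the levels were 19.5 to 36.1 CPM (median 28.5) in ligated and 3.70 to 41.2 CPM (median 26.7) in sham mice and overlapped, and the effect of 0.49 (SE 0.45) did not pass (edgeR adjusted p = 0.668). The difference between the days' effects was 2.40 on the log2 scale (SE 0.69, 95% interval 1.05 to 3.75) and did not pass the threshold (edgeR adjusted p = 0.639). Fmo1, and Fmo2, a main form in lung, overlapped on both days. Their log2 fold changes at day 15 were 0.10 (SE 0.32) and 0.40 (SE 0.37). Lung markers overlapped between the groups at day 15, at 5.48 to 34.9 CPM in ligated mice (7 of 10 counted, with Sftpc, Sftpb and Lamp3 at 0) and 0 to 23.1 CPM in sham mice (3 of 10 counted, with Scgb3a2, Sftpc, Sftpb, Sftpa1, Sftpd, Foxj1 and Cldn18 at 0). At day 8 they had 9.74 to 321 CPM (median 14.3) in ligated mice, 9 of 10 counted with Lamp3 at 0. Sham mice of day 8 had 13.1 to 29.5 CPM (median 14.4), 3 of 10 counted. The part of lung RNA in the Fmo values was not tested. The family sums were 339 counts in ligated and 323 in sham mice at day 8 (ratio 0.937, 0.802 to 1.10, and 1.09 on library sizes scaled by TMM, the normalisation used for the tests), and 564 in ligated and 250 in sham mice at day 15 (ratio 1.52, 1.31 to 1.77).

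Adh1, the class I enzyme of ethanol and retinol oxidation, had 38.4 to 176 CPM (median 83.3) in ligated and 0 to 134.5 CPM (median 13.9) in sham mice at day 15. The groups overlapped through sham library 1 alone, since the other sham libraries reached 34.2 CPM. The log2 fold change was 1.70 (SE 0.57), and edgeR's adjusted p of 0.0855 missed the threshold. With the replicate number as a block Adh1 passed it, at 1.92 (SE 0.47, adjusted p = 0.0153). Same-numbered libraries of day 15 did not deviate together, however. Adh5, the formaldehyde-clearing class III enzyme of all tissues, passed at neither day, with effects of 0.38 (SE 0.31) at day 15 and -0.32 (SE 0.31) at day 8, and edgeR adjusted p-values of 0.571 and 0.685. Adh4, Adh6a, Adh6b and Adh7 stayed under 10 counts in each group. The family sums were 182 counts in ligated and 185 in sham mice at day 8 (ratio 0.879, 0.712 to 1.08, and 1.02 on TMM-scaled sizes), and 338 in ligated and 113 in sham mice at day 15 (ratio 2.02, 1.63 to 2.52).

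Aldh1l1 (chr6:90486427-90600203, plus strand), which oxidises 10-formyltetrahydrofolate, was the aldehyde dehydrogenase with the largest change among the 12. It had 16.4 to 170 CPM (169.6 in library 5, median 45.9) in ligated and 0 to 22.4 CPM (median 5.55) in sham mice at day 15. The groups overlapped only in that the lowest ligated library lay under the highest sham library. Aldh1l1 rose by 3.40 on the log2 scale (SE 0.67), with an edgeR adjusted p of 0.00169 and 5 of 6 libraries above every sham library, and by 2.73 without library 5. At day 8 it had 7.73 to 32.9 CPM (median 12.2) in ligated and 0 to 7.28 CPM (median 1.55) in sham mice, without overlap. The day 8 log2 fold change of 2.31 (SE 0.79, 95% interval 0.76 to 3.86) had an edgeR adjusted p of 0.125 and did not pass. Gm15756 lies antisense over 11.0% of its exon bases, with the strand setting of the counting not given in the sources used here.

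Aldh1a1, which makes retinoic acid from retinal, had 52.6 to 97.9 CPM (median 81.7) in ligated and 37.2 to 81.5 CPM (median 46.1) in sham mice at day 8. At day 15 it had 66.6 to 103 CPM (median 80.5) in ligated and 6.36 to 112 CPM (median 52.3) in sham mice. The groups overlapped on both days, and the log2 fold changes of 0.89 (SE 0.28, edgeR adjusted p = 0.0766) and 0.74 (SE 0.28, adjusted p = 0.141) missed the threshold singly. Averaged over both days Aldh1a1 rose by 0.82 (SE 0.20, adjusted p = 0.00751), as did Aldh1l1 by 2.85 (SE 0.52, adjusted p = 0.000472) and Fmo5 by 1.69 (SE 0.34, adjusted p = 0.00133). These 3 of 12 members were higher in the averaged comparison and 0 lower, beside 7.1% and 3.5% of all genes tested.

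Aldh2 and the other widely expressed aldehyde dehydrogenases did not pass the test at either day. Aldh2 had 149 to 638 CPM (median 287) in ligated and 112 to 418 CPM (median 325) in sham mice at day 8, and 163 to 223 CPM (median 194) in ligated and 132 to 273 CPM (median 163) in sham mice at day 15. Its effect on the log2 scale was 0.50 (SE 0.28) at day 8 and 0.36 (SE 0.30) at day 15, with edgeR adjusted p-values of 0.439 and 0.571. Most of its day 8 counts came from libraries 4 to 6, which are the deeper ones. They also had the higher Aldh2 CPM levels in both groups, though narrowly in sham mice. Platelet markers, 10 of 10 counted, ran from 779 to 7774 CPM in ligated and from 1032 to 6721 CPM in sham mice at day 8, and their part in the Aldh2 values was not tested. For Aldh3a2, of fatty aldehyde oxidation, the log2 fold change was 0.31 (SE 0.36) at day 15. Aldh9a1, of carnitine synthesis, gave -0.27 (SE 0.37) then. Aldh1a2, another maker of retinoic acid, gave -1.39 (SE 0.86, edgeR adjusted p = 0.422) at day 15 and 0.60 (SE 0.81) at day 8, with 46 of its 68 ligated counts of day 8 in library 4.

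Among aldehyde dehydrogenases of amino acid breakdown, too low to be tested, the pooled levels of day 15 were higher in ligated than in sham mice. Aldh4a1, of proline breakdown, had 62 counts in ligated and 11 in sham mice at day 15 (ratio 3.80, 1.98 to 8.01), with 43.8% of its windows shared with Gm21969. Aldh6a1, of valine breakdown, had 61 and 24 (ratio 1.71, 1.05 to 2.87), and Aldh7a1, of lysine breakdown, 52 and 17 (ratio 2.06, 1.17 to 3.80). Without library 5 the counting intervals of both included 1 (0.838 to 2.47 for Aldh6a1 and 0.929 to 3.26 for Aldh7a1). Aldh5a1, which removes succinic semialdehyde, had 19 counts in ligated and 3 in sham mice. Aldh8a1, of tryptophan breakdown, had 18 and 0, with 13 of the 18 in library 5. Aldh18a1, which acts in proline synthesis, had 16 counts in ligated and 27 in sham mice (ratio 0.400, 0.201 to 0.769). Aldh1a7, a close relative of Aldh1a1, had 36 and 2 (ratio 12.1, 3.13 to 104), and a ratio of 6.41 without library 5, which held 21 of the 36. The ratios of Aldh16a1 (1.32), Aldh3b1 (1.35) and Aldh1b1 (1.89) at day 15 had counting intervals that included 1, and Aldh1a3 had 8 counts in ligated and 1 in sham mice. At day 8 the sums of this group were 34 in ligated and 17 in sham mice for Aldh4a1, 41 and 25 for Aldh6a1 and 43 and 26 for Aldh7a1. The whole Aldh family summed to 2195 counts in ligated and 1452 in sham mice at day 8 (ratio 1.35, 1.26 to 1.44), and 1304 and 648 at day 15 (ratio 1.36, 1.23 to 1.49). At day 8 the excess was in libraries 4 to 6, with a ratio of 1.41 there and 0.956 in libraries 1 to 3.

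Per length, the order of the leading genes differed between ligated and sham mice at day 15. In CPM per kilobase of the longest transcript, Adh1 (64.0), Aldh2 (50.8), Sult1a1 (44.6) and Ces1c (42.6) led in ligated mice, and Aldh2 (45.1), Aldh1a1 (24.8), Adh1 (22.5) and Fmo2 (22.1) in sham mice. Without ligated library 5 the order was Aldh2 (50.3), Adh1 (49.6), Sult1a1 (35.6), Aldh1a1 (33.6) and Ces1c (25.4). Ces1c had no count in sham mice. At day 8 the leaders were Aldh2 (117), Aldh1a1 (34.0) and Adh1 (18.7) in ligated mice, and the same genes in the same order in sham mice (85.7, 21.6 and 15.7).

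Within ligated mice, day 15 set against day 8 gave 2 of 12 tested members higher and 0 lower, beside 2.26% and 2.09% of all genes tested. Aldh1l1 rose by 2.14 on the log2 scale (SE 0.54, edgeR adjusted p = 0.0240) and Fmo5 by 1.46 (SE 0.40, adjusted p = 0.0372). These calls were lost in 5 and 7 of 24 refits that each left out 1 library, ligated library 5 of day 15 among them (1.44 and 0.92 without it). In the untested members the ligated sums were 172 counts at day 15 and 7 at day 8 for Ces1c, 73 and 1 for Ugt1a1, and 71 and 14 for Ugt2b34. Ugt1a7c had 13 at day 15 and 25 at day 8. In sham mice, 0 of 12 members passed between the days by edgeR (1 at an unadjusted p under 0.05, 0 by DESeq2), beside 0% of all genes tested. A test of whether the effect of ligation differed by day passed for 0 of the 12 by edgeR (1 at an unadjusted p under 0.05, 0 by DESeq2), beside 0% of all genes tested. These comparisons share their ligated libraries with those against sham mice.

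Without the filter on low counts, 18710 genes and 70 members were tested with edgeR. At day 8, 4 members were then higher (Ugt2b34, Ugt1a6a, Ugt1a7c and Aldh1l1) and 0 lower, beside 1.41% and 0.187% of all genes. Ugt1a6a had 29 of its 31 ligated counts in library 4, and 2 in ligated against 3 in sham mice without it. Ugt1a6a and Ugt1a7c are also uncertain singly. At day 15, 19 were higher and 1, Aldh1a2, lower, beside 2.96% and 0.722%, the higher ones including Ces1c, Ces1g, Ugt1a1, Ugt2b5, Sult1a1 and Adh1. In the average 19 were higher, beside 4.37%, and 0 lower, beside 1.2%. The effect differed between days for 2, Fmo5 and Ces1c, beside 0.118% higher and 0.155% lower. In ligated mice, day 15 against day 8 gave 14 higher and 1, Aldh2, lower, beside 2.01% and 1.47%, and in sham mice 0, beside 0.203% and 0.599%. The median of all genes at day 15 was 0.30 on the log2 scale in that fit.

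Liver-enriched and widely expressed members were also summed apart. The 46 liver-enriched members had 192 to 431 CPM (median 262) in ligated and 149 to 307 CPM (median 193) in sham mice at day 8, with 2 of 6 ligated libraries above the highest sham library. At day 15 they had 452 to 1718 CPM (median 664) in ligated and 152 to 457 CPM (median 227) in sham mice, where 5 of 6 ligated libraries exceeded the highest sham library. The 10 widely expressed members had 262 to 785 CPM (median 436) in ligated and 260.5 to 552 CPM (median 513) in sham mice at day 8, with 3 of 6 above. They had 334 to 532 CPM (median 382) in ligated and 245 to 475 CPM (median 337) in sham mice at day 15, with 1 of 6 above. Hepatocyte markers were higher in ligated than in sham mice on both days, as the plot against their level shows. Their medians were 990.4 CPM in ligated and 91.9 CPM in sham mice at day 8. At day 15 they were 9371 CPM in ligated and 144 CPM in sham mice. The liver-enriched members differed less at day 8, at medians of 262 CPM in ligated and 193 CPM in sham mice, with overlap. The liver-enriched members amounted to a median of 7.20% of the hepatocyte marker counts in ligated mice at day 15 (6.33 to 12.6%) and 27.3% in ligated mice at day 8 (8.92 to 36.5%). For the 31 of them with at most 3 counts over all sham libraries, a set chosen after those values were seen, the shares were 2.55% (1.83 to 3.29%) at day 15 and 1.71% (0.575 to 2.72%) at day 8. Both quantities come from the same libraries, and the part of hepatocyte RNA in the enzyme values was not tested.

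**Figure D4:**
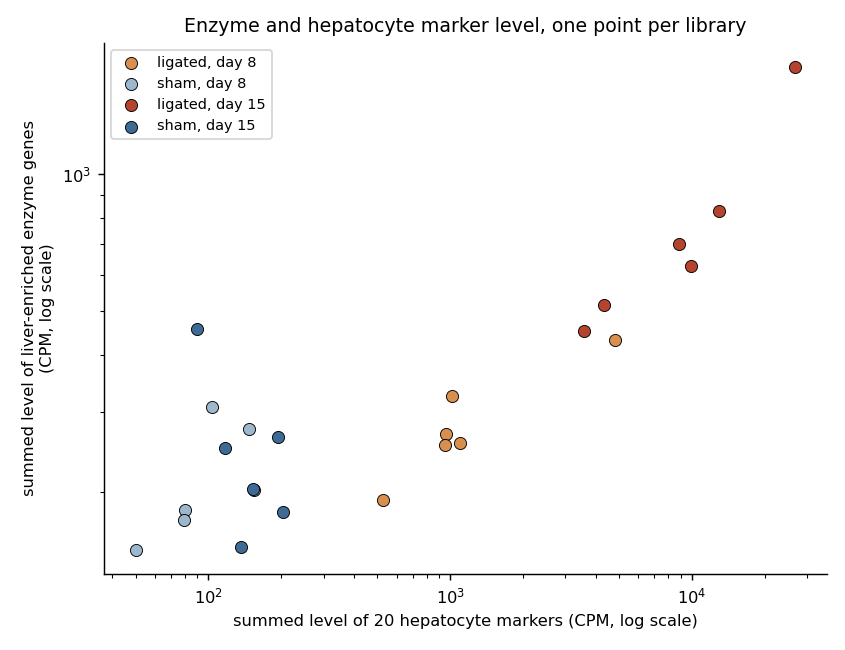
Summed level of the 46 liver-enriched enzyme genes against that of 20 hepatocyte markers, both in CPM on log axes, with 1 point per library. The ligated libraries of day 15 lie at the upper right, up to 26594 CPM of markers, and the sham libraries of both days at the left, at up to 204 CPM. The ligated libraries of day 8 lie to the right of the sham libraries, at 526 to 4828 CPM of markers, and overlap them in enzyme level.

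Genes around conjugation, such as cofactor suppliers and regulators, were mostly too low to be tested. Of 43 listed, 42 were in the table and 13 could be tested. At day 15, 2 rose and 0 fell, beside 3.48% and 1.07% of all genes tested. Among them Gnmt, the liver's glycine methyltransferase, had 8.22 to 247 CPM (median 52.0) in ligated mice and 0 in every sham library, with sums of 199 and 0 counts (edgeR adjusted p = 0.00312). Gnmt passed the filter through 6 libraries, all of them ligated. At day 8 Xdh, xanthine dehydrogenase, rose by 0.98 (SE 0.27, adjusted p = 0.0471), 1 of 13, beside 2.77% of all genes tested, at 62.5 to 131 CPM (median 104) in ligated and 27.9 to 80.3 CPM (median 63.9) in sham mice. Averaged over both days, 4 of 13 rose and 0 fell, beside 7.1% and 3.5% of all genes tested. Gnmt, Xdh and Ugp2, which makes UDP-glucose, were among those that rose.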

How the data were processed

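RNA from plasma vesicles was sequenced in 24 libraries, 1 per mouse. The authors deposited expected counts per gene, made with STAR and RSEM per the submitters' processing notes, which also name hg38. All values are whole, so they were taken as rounded. Not given in the sources used here were versions, strand setting and the division of reads among similar genes. The identifiers are mouse Ensembl genes: 21860 of 21960, and 93 of 93 members, were found in GENCODE M21 (GRCm38), the source of coordinates. A single gene, Lars2, held 31.6 to 52.7% of each library's counts. Libraries of a group differed beyond sampling noise, so none was a resequenced copy of another in its group. This check did not cover libraries of different groups or second preparations from an animal.

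CPM values were taken over each library total, and family sums over a group's counts and totals. Genes were filtered with filterByExpr (minimum count 10, minimum total 15), scaled with TMM factors and put through the quasi-likelihood test of edgeR 4.0.16 in R 4.3.3, with 1 mean per group over all 24 libraries and Benjamini-Hochberg adjustment over the 4112 genes kept, at 0.05. Steps were tested on simulated data. Alternatives were DESeq2 1.42.0, RLE size factors, no filter, fewer groups, a replicate block, no Lars2, parts of day 8 and leaving out each library. Same-numbered libraries deviated together at day 8 (r 0.165 to 0.327, 6 of 6 over 0.1) and not at day 15 (1 of 6). Libraries of different numbers were not compared. Day 8 libraries 4 to 6 of both groups were also deeper than 1 to 3, so whether the titles' numbers pair animals cannot be told. Named were all 12 tested members, members with at least 10 counts in a group, and called genes of the list around conjugation. A sentence naming others lists them after their values were seen. Single values of a few genes are not reported here. Floors are 3 counts over a group, intervals exact at 95%. Members and lists were chosen with earlier results of these data known.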

Additional observations from a re-analysis of the deposited data

Results flagged for a closer look

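For the 12 tested genes and the family sums, 84 groups of 6 libraries were examined for a library far from the others, and 10 had one. The rule flags about 1 in 20 by chance where groups are independent. These are not, since the sums hold the genes, so that share cannot be set against the 10. Ligated library 5 of day 15 was the highest in 4 of the 10. It had 169.6 CPM of Aldh1l1, where the other libraries had 16.4 to 66.6, 201.8 CPM of the Ugt2b sum (others 30.2 to 72.9), 857 CPM of the Aldh sum (others 493 to 558) and 2332 CPM of all members (others 909.7 to 1338). It also had the highest hepatocyte marker level of all 24 libraries, 26594 CPM. Sham library 1 of day 15 had 273 CPM of Aldh2 (others 132 to 185) and 134.5 CPM of Adh1 (others 0 to 34.2). Ligated library 3 of day 8 alone had counts of the Ugt2a sum in its group, at 6.58 CPM, and sham library 6 of day 15 alone had a count of the Ugt2b sum, at 4.13 CPM. Sham library 1 of day 8 had 39.3 CPM of the Ces sum (others 5.72 to 16.8), and it is the shallowest library. Sham library 3 of day 8 was low in the Aldh sum, at 260.5 CPM (others 501 to 612).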

How the results depend on the processing

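The calls of Fmo5 and Aldh1l1 at day 15 held in all 24 refits that left out 1 library, with log2 fold changes of 2.35 to 3.07 and 2.73 to 4.08, and under each other setting run. Without the filter on low counts, which tests 70 members among 18710 genes and gives smaller standard errors (0.45 for Aldh1l1 at day 15, against 0.67), 4 members were called at day 8, 20 at day 15 (19 higher, and Aldh1a2 lower), 19 in the average, 2 in the difference between days (Fmo5 and Ces1c) and 15 between days in ligated mice, while the median of all genes at day 15 shifted to 0.30. At day 8, DESeq2 called 2 members and a fit of only the groups compared 1. Between days in ligated mice, 0 members were called with day 8 libraries 1 to 3, 7 with libraries 4 to 6 and 1 with only the groups compared, and in sham mice 2 with libraries 4 to 6. Leaving out 1 library gave 0 to 6 calls between days in ligated mice and 0 to 1 at day 8. The replicate block gave 0 calls at day 8, 3 at day 15 and 4 in the average. Directions that turned were of genes not called with the settings reported, though Aldh2 between days in ligated mice was called lower without the filter, with libraries 4 to 6 and in 3 refits. On TMM effective sizes, in place of library totals, ratios and bounds of counts are 1.16 times as high at both days. Sult1a1 at day 8 was -0.011 with RLE, -0.0026 without the filter, -0.033 in the groups compared, -0.025 without Lars2, -0.25 in libraries 1 to 3, -0.12 with DESeq2 and -0.31 to 0.32 leaving out 1 library. Aldh1a2 at day 8 was -0.54 in libraries 1 to 3 and -0.32 to 1.25 leaving out 1 library, and Fmo2 -0.21 and -0.14 to 0.47. Fmo1 at day 8 was -0.0038 with the replicate block, -0.45 in libraries 4 to 6 and -0.31 to 0.27 leaving out 1 library, and at day 15 -0.077 to 0.26. Aldh2 between days in ligated mice was 0.077 with day 8 libraries 1 to 3. The share of hepatocyte marker counts was 1.71% at day 8 and 2.55% at day 15 with the members low in sham mice, an alternative added after seeing the data. The cause of these changes was not tested. Leaving out 1 library, also added after seeing the data for these counts, gave 4 to 7 members seen after ligation and not in sham mice at day 8 and 19 to 28 at day 15. Low counts are the main limit: 81 of 93 members could not be tested.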
